A study of Mus musculus with 6 samples.

Results

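The genes described here form the aldosterone-responsive sodium channel pathway. They are the 3 subunits of the epithelial sodium channel (Scnn1a, Scnn1b and Scnn1g), the mineralocorticoid and glucocorticoid receptors (Nr3c2 and Nr3c1), the steroid-inactivating enzyme gene Hsd11b2, the kinase gene Sgk1, the ubiquitin ligase gene Nedd4l and the hormone-induced gene Tsc22d3. The members were chosen by name for their role in the pathway, with earlier results of these data known. All 9 were found among the 23219 gene symbols of the table. The RNA came from whole kidneys of mouse embryos at day 17 (E17): 3 controls, which carry the numbers 5, 7 and 11 in the labels, and 3 mutants with the numbers 6, 8 and 9. Control kidneys were Mta2flx/flx, with both alleles of Mta2 floxed, and mutant kidneys were Six2Cre Mta2flx/flx, so floxed alleles were shared by all 6. Mta2 encodes a subunit of the nucleosome remodelling and deacetylase complex, and Six2Cre acts in nephron progenitors. Kidneys without floxed alleles and kidneys with Cre alone were not analysed here, so Mta2 loss and the Cre transgene cannot be told apart.

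Aldosterone binds the mineralocorticoid receptor in the distal nephron and collecting duct, where the sodium channel admits sodium from the tubular fluid and the sodium pump exports it to the blood side. The mineralocorticoid receptor also binds glucocorticoid, and the enzyme encoded by Hsd11b2 inactivates glucocorticoid in these cells so that aldosterone can act. The hormone-bound receptors raise Sgk1 and Tsc22d3 in many cells. The kinase SGK1 phosphorylates NEDD4L, which otherwise marks the channel for removal from the membrane. The collecting duct descends from the ureteric bud, outside the Six2 lineage, whereas the distal convoluted tubule and most of the connecting tubule descend from Six2 progenitors. In whole kidneys, fewer cells of a type and less RNA per cell cannot be told apart.

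Promoter sequences are shown for the 2 channel subunit genes that neighbour each other and for the 2 hormone-induced genes, because these pairs share a role and a direction below. They come from RefSeq (GRCm38.p6, the assembly of mm10) and run from 250 bases before an annotated start to 50 bases into the transcript, 5′ to 3′ on the gene's strand. Windows were found for 5 of the 9 members (Scnn1b, Scnn1g, Nr3c2, Sgk1 and Tsc22d3), 12 windows in all. Capitals mark the half-site TGTTCT of the corticosteroid receptors, in either orientation, and the full palindrome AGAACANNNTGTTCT. The windows lie at chr7:121734229-121734528 (Scnn1g, plus strand), chr7:121864788-121865087 (Scnn1b, plus), chr10:21993640-21993939 (Sgk1, plus, 1 of 6 annotated starts) and chrX:140600473-140600772 (Tsc22d3, minus, 1 of 3 starts).
Scnn1g: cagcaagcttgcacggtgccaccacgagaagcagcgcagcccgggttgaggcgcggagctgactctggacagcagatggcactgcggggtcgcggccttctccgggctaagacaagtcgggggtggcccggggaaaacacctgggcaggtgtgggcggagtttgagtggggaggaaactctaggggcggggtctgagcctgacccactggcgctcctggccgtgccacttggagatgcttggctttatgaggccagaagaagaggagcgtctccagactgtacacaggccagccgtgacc
Scnn1b: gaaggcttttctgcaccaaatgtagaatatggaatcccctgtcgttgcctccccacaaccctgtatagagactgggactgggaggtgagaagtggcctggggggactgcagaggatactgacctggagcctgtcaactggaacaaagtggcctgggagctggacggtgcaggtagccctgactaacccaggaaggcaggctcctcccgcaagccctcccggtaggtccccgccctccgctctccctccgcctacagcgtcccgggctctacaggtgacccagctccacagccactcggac
Sgk1: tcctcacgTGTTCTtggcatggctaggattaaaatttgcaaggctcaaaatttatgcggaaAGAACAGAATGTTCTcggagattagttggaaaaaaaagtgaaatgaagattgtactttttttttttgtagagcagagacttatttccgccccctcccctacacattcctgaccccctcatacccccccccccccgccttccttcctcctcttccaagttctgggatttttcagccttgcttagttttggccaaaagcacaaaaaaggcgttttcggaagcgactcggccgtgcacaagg
Tsc22d3: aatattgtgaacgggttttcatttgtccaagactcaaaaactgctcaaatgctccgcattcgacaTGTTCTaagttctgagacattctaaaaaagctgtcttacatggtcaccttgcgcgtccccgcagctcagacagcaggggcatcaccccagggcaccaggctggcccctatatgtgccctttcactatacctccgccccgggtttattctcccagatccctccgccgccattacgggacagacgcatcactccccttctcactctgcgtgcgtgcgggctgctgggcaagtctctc

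The Sgk1 window held the palindrome, as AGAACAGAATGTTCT starting 189 bases before the annotated start, and its 2 half-sites are part of it. A further half-site lay 242 bases before the start. The palindrome was present in 3 of all 32851 promoter windows (0.00913%), and the half-site in 19.0% of them. The Tsc22d3 window held 1 half-site, starting 185 bases before the start. The Sgk1 and Tsc22d3 windows shown are those with the most half-sites among the annotated starts of each gene. The other Sgk1 windows held no palindrome and at most 1 half-site, and the other Tsc22d3 windows held neither. No half-site was found in the windows of Scnn1b, Scnn1g or Nr3c2, which says only that these letters are absent there. These windows held 10, 18 and 17 CG dinucleotides respectively, against a median of 7 over all windows. A match of letters is a description and not a receptor site.

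Summed coverage came to 794 to 1235 megabases per library. Levels are given as BPM, the covered bases of a gene per 1e+06 covered bases of its library. How many reads lie behind a value is unknown, so counting error has no interval here. The labels do not say whether the kidneys came from separate embryos, and a p-value then reflects the variation among these 6 samples, part of which may be technical. Mta2 stood at 209 ± 11.0 BPM in controls against 158 ± 26.6 BPM in mutants (SD, 3 kidneys per group), 75.5% of the control level with no overlap, and did not pass the test (limma adjusted p = 0.887). Control 11 had 2.30% of its bases on Lars2 against at most 0.482% elsewhere, and mutant 9 carried muscle transcripts, with the 8 muscle markers at 327 BPM in sum against 5.04 to 15.03 in the other libraries. Defining kidney markers were present in every library, among them Lrp2 of the proximal tubule, Podxl of the podocyte and Slc12a1 of the loop of Henle. All 5 proximal tubule and all 5 podocyte markers had log2 fold changes below 0, with medians of -0.67 and -0.37. The 5 loop of Henle markers divided, with 3 above and 2 below 0 and a median of 0.062. Among them Umod was at -1.21 with no overlap (limma adjusted p = 0.12). The 5 nephron progenitor markers also divided, with 3 above and 2 below 0 and a median of 0.63. Lrp2 was at -0.79 with no overlap (limma adjusted p = 0.12), and the part of these markers in the results for the channel genes was not tested.

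The members differed in direction between mutant and control kidneys, and none passed the test. Hsd11b2 was higher in all 3 mutant kidneys, at 186% of the control mean, and both receptor genes had higher means. All 3 channel subunits had lower means, at 65.3% to 84.8% of control, and the hormone-induced genes Sgk1 and Tsc22d3 also had lower means. Limma called 0 of the 9 members at an adjusted p of 0.05, and it called 0% of all 13977 genes tested, of which 783 had an unadjusted p below 0.05. None of the 9 had an unadjusted p below 0.05 in this main fit, against 5.6% of all genes tested (2.9% higher and 2.7% lower in mutants). All 9 passed the filter on low values. In the main fit their log2 fold changes ran from -0.70 (Scnn1a) to 0.94 (Nr3c2), each smaller in size than a 2-fold change. That of Nr3c2 was above 2-fold at some other settings, such as 1.07 with a pseudocount of 0.1 and 1.14 with sample weights. The fit recovered 10.7% of 2-fold changes in simulated data, so the lack of calls does not show that the members were unchanged. Of the 9, 2 had no overlap between the groups, Hsd11b2 higher and Tsc22d3 lower, where 11.2% of all genes tested had none (6.1% higher and 5.12% lower). The median log2 fold change was -0.24 over the members, of which 5 lay below 0, and 0.023 over all genes tested, of which 47.4% lay below 0.

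**Figure D1:**
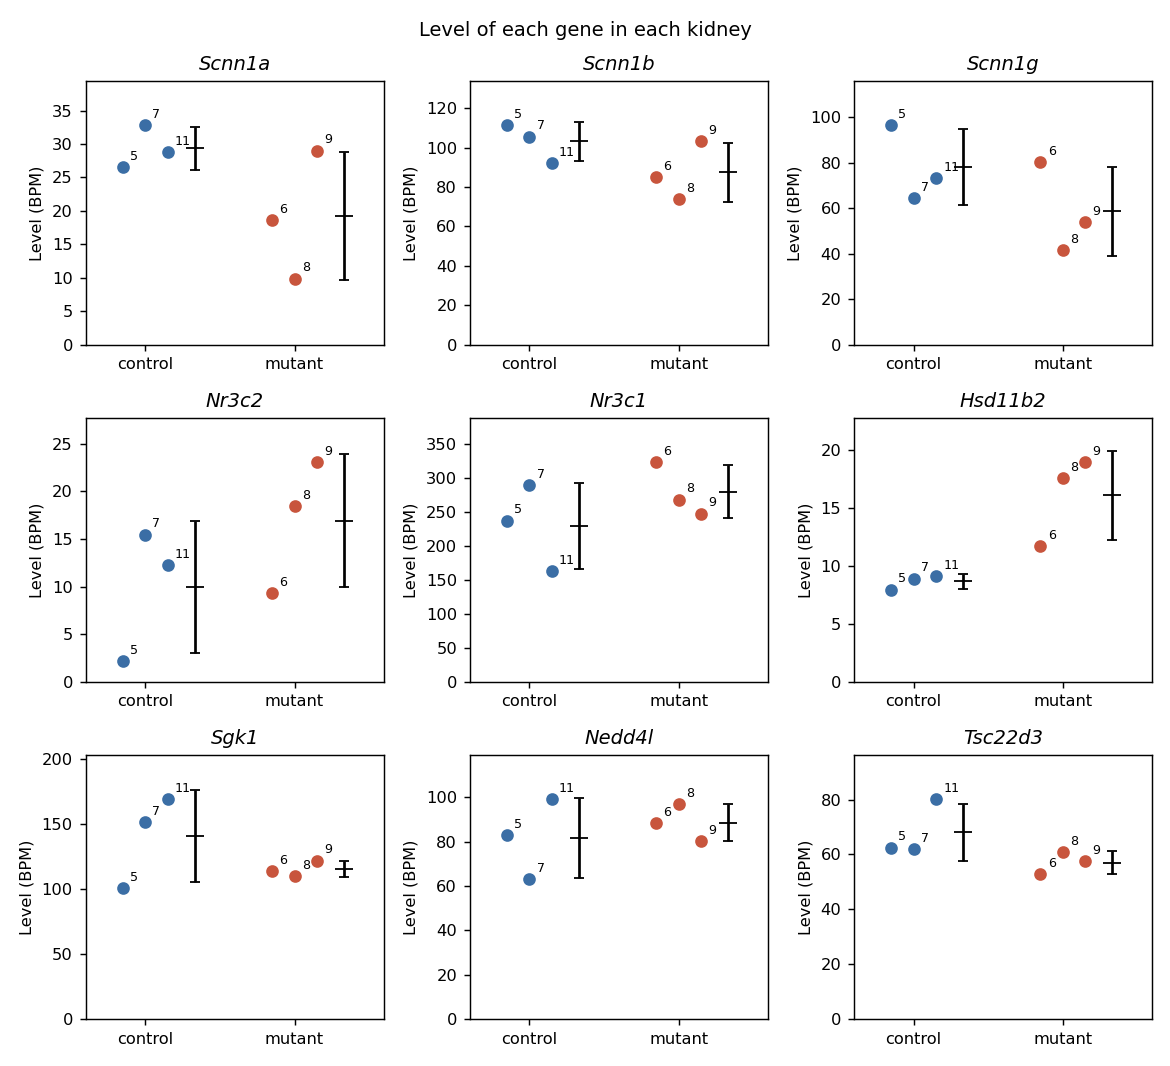
Level of each gene (vertical axes, BPM, starting at 0) in each kidney, with one point per kidney labelled by its number, controls in blue and mutants in red, and the mean with its SD in black. Only Hsd11b2 and Tsc22d3 show groups that do not overlap, and Nr3c2 is lowest in control 5, at 2.15 BPM.

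The channel subunits had lower means in mutant kidneys, with overlap between the groups for each of them. Scnn1a encodes the alpha subunit, which the channel needs to form its pore (chromosome 6, 125320659 to 125344943, plus strand, mm10). Its levels were 26.5, 32.8 and 28.7 BPM in control kidneys 5, 7 and 11, and 18.6, 9.88 and 29.0 BPM in mutant kidneys 6, 8 and 9. Mutants 6 and 8 lay below every control, and mutant 9 lay inside the control range. The means were 29.4 ± 3.22 and 19.2 ± 9.57 BPM (SD, 3 kidneys per group), or -0.70 as a log2 fold change (SE 0.40, 95% interval -1.52 to 0.11), and limma gave adjusted p = 0.887. The size of the difference rested on mutant 8: without it the log2 fold change was -0.32, and without mutant 9 it was -1.05. In all 18 alternative settings it stayed below 0.

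Scnn1b and Scnn1g encode the beta and gamma subunits, which raise channel activity at the membrane, and lie 96.6 kilobases apart on chromosome 7 in the same orientation. Scnn1b (121865038 to 121918514, plus strand) had levels of 111, 105 and 92.2 BPM in control kidneys 5, 7 and 11, against 84.9, 74.0 and 103 BPM in mutant kidneys 6, 8 and 9. The mutant 9 value was within the control range, and the other mutants lay below it. The means were 103 ± 9.82 and 87.4 ± 14.9 BPM (SD, 3 kidneys per group), or -0.24 as a log2 fold change (SE 0.24, 95% interval -0.73 to 0.25, limma adjusted p = 0.927). Scnn1g (121734479 to 121768475, plus strand) had levels of 96.6, 64.6 and 73.3 BPM in control kidneys 5, 7 and 11, against 80.3, 41.7 and 54.0 BPM in mutant kidneys 6, 8 and 9. Here mutant 6 was the mutant kidney inside the control range, and mutant 8 was lowest, as it was for the other 2 subunits. The means were 78.2 ± 16.6 and 58.7 ± 19.7 BPM (SD, 3 kidneys per group), or -0.44 as a log2 fold change (SE 0.28, 95% interval -1.01 to 0.13, limma adjusted p = 0.896). Without mutant 8 the log2 fold changes were -0.13 for Scnn1b and -0.22 for Scnn1g. Without mutant 9 the Scnn1b value was -0.37, and for Scnn1g it was -0.28 without control 5 and -0.69 without mutant 6. As ratios of mutant to control, the intervals run from 0.602 to 1.19 for Scnn1b and from 0.497 to 1.09 for Scnn1g.

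The corticosteroid receptors had higher means in mutant kidneys, each with overlap, and both values depended on single kidneys. Nr3c2, the mineralocorticoid receptor gene (chromosome 8, 76899442 to 77245012, plus strand), had levels of 2.15, 15.5 and 12.3 BPM in control kidneys 5, 7 and 11, against 9.30, 18.4 and 23.1 BPM in mutant kidneys 6, 8 and 9. Control 5 stood far below the other kidneys, while mutants 8 and 9 lay above every control and mutant 6 did not. The means were 9.96 ± 6.95 and 16.9 ± 7.01 BPM (SD, 3 kidneys per group), or 0.94 as a log2 fold change (SE 0.57, 95% interval -0.21 to 2.08, limma adjusted p = 0.892). Without control 5 the log2 fold change was 0.19. An exonic stretch of 247 bases, 3.82% of the Nr3c2 exons, overlaps the gene model Gm10649 on the opposite strand, and strand use in the counting is not given in the sources used here. Nr3c1, the glucocorticoid receptor gene (chromosome 18, 39410545 to 39519421, minus strand), is expressed in most cell types and had levels of 237, 289 and 163 BPM in control kidneys 5, 7 and 11, against 324, 269 and 248 BPM in mutant kidneys 6, 8 and 9. Mutant 6 alone exceeded every control, and control 11 was lowest. The means were 229.9 ± 63.7 and 280.1 ± 39.2 BPM (SD, 3 kidneys per group), or 0.31 as a log2 fold change (SE 0.21, 95% interval -0.12 to 0.75, limma adjusted p = 0.896). It was 0.086 without control 11, 0.21 without mutant 6 and 0.50 without control 7.

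Hsd11b2 encodes the type 2 11-beta-hydroxysteroid dehydrogenase, which inactivates glucocorticoid (chromosome 8, 105518755 to 105523988, plus strand). Its levels were 7.96, 8.91 and 9.14 BPM in control kidneys 5, 7 and 11, and 11.7, 17.6 and 19.0 BPM in mutant kidneys 6, 8 and 9. The 3 controls lay close together, and every mutant kidney lay above them. The means were 8.67 ± 0.622 and 16.1 ± 3.87 BPM (SD, 3 kidneys per group). The log2 fold change of 0.80 (SE 0.49, 95% interval -0.19 to 1.78) did not pass limma's test (adjusted p = 0.894, unadjusted 0.111), which shares the spread of genes at similar levels. Of the 1878 genes at a similar level (mean log2 within 0.5), 14.1% had a larger log2 fold change in size. Leaving out each kidney in turn gave log2 fold changes from 0.67 to 0.997. The groups also did not overlap with the other scalings. The remaining alternatives (kidneys left out, filters, pseudocounts, variance models and weights) cannot make separated groups overlap, so they do not bear on this. In the authors' deposited table the ratio of the means was 1.86, with an unadjusted p of 0.0306. The other 8 members ran from 0.155 to 0.583 there. The share of all genes with a small p in the authors' comparison is not given here, so these values are not read against a background. The mean depth over the exons ran from 3.43 to 10.3 bases of coverage per exon base.

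**Figure D2:**
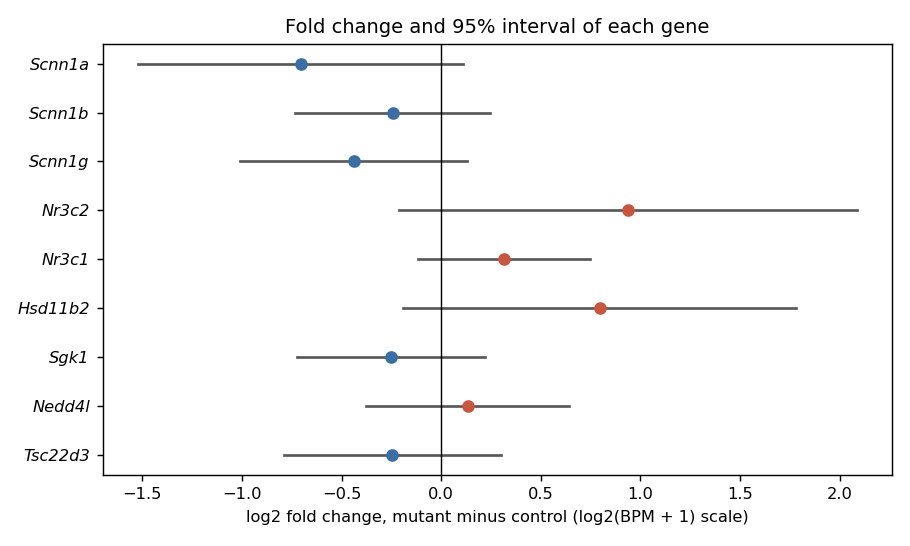
The log2 fold change of each gene in mutant against control kidneys (horizontal axis, log2(BPM + 1) scale) with its 95% limma interval as a line, points above 0 in red and below 0 in blue. All 9 intervals include 0, and the interval of Nr3c2, from -0.21 to 2.08, is the widest.

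Among the regulators, Sgk1 and Tsc22d3 had lower means in mutant kidneys and Nedd4l was nearly level. Sgk1 (chromosome 10, 21882184 to 21999903, plus strand) had levels of 101, 151 and 169 BPM in control kidneys 5, 7 and 11, against 114, 109.9 and 122 BPM in mutant kidneys 6, 8 and 9. The mutant kidneys lay close together, below controls 7 and 11 and above control 5. The means were 140.3 ± 35.4 and 115 ± 5.96 BPM (SD, 3 kidneys per group), or -0.25 as a log2 fold change (SE 0.23, 95% interval -0.72 to 0.22, limma adjusted p = 0.92). It was -0.47 without control 5, where the groups no longer overlapped, as for 20.1% of all genes tested at that setting, and -0.10 without control 11. Tsc22d3 encodes GILZ, a leucine zipper protein that glucocorticoid induces (chromosome X, 140539528 to 140600659, minus strand). It had levels of 62.5, 61.8 and 80.1 BPM in control kidneys 5, 7 and 11, against 52.7, 60.9 and 57.5 BPM in mutant kidneys 6, 8 and 9. Every mutant was below every control, but mutant 8 and control 7 were less than 1 BPM apart. The means were 68.1 ± 10.4 and 57.0 ± 4.11 BPM (SD, 3 kidneys per group), or -0.25 as a log2 fold change (SE 0.27, 95% interval -0.79 to 0.30, limma adjusted p = 0.931), or -0.12 without control 11. Nedd4l, which encodes the ubiquitin ligase that acts on the channel (chromosome 18, 64887705 to 65217828, plus strand), had levels of 82.8, 63.2 and 99.1 BPM in control kidneys 5, 7 and 11, against 88.4, 96.7 and 80.3 BPM in mutant kidneys 6, 8 and 9. All 3 mutant values lay within the control range. The means were 81.7 ± 17.98 and 88.5 ± 8.23 BPM (SD, 3 kidneys per group), and the log2 fold change of 0.13 (SE 0.25, 95% interval -0.38 to 0.64, limma adjusted p = 0.961) became -0.037 without control 7, 0.28 without control 11, 0.068 without mutant 8 and 0.20 without mutant 9.

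Markers of other sources of these transcripts are given beside the regulators, and their part in the results was not tested. Immediate early genes, which rise with tissue handling, were at 159.9 to 182 BPM in sum in control and 158 to 239 BPM in mutant kidneys (8 of 9 tested). Most of this sum was Jun, with means of 106 and 128 BPM, so it says little about the other genes. The median log2 fold change of the 8 genes tested was -0.049, with 4 above and 4 below 0. Egr1 was at 11.1 ± 5.80 and 27.5 ± 11.7 BPM (SD, 3 kidneys per group) with no overlap, and Zfp36 had a log2 fold change of -0.96 with overlap. Leukocyte markers, of a cell type rich in Tsc22d3, overlapped in their sum, at 63.8 to 83.0 and 66.8 to 77.8 BPM (4 of 8 tested), with the T cell gene Cd3e listed at 0 in all 6 libraries. Of the 4 tested, Ptprc was higher in every mutant (9.91 to 13.1 against 13.8 to 37.8 BPM) and the macrophage gene Csf1r lower in every mutant (28.7 to 45.2 against 23.5 to 27.0 BPM), and neither passed limma's test. The 8 adrenal cortex markers summed to 0 to 4.30 BPM in control and 0.174 to 4.57 BPM in mutant kidneys, and the aldosterone synthase gene Cyp11b2 was among 3 listed at 0 in all libraries.

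Scaled to exon length, the beta and gamma subunits were far more abundant than the alpha subunit. In control kidneys the levels per kilobase of merged exons were 39.1 ± 3.73 for Scnn1b, 26.1 ± 5.54 for Scnn1g and 7.11 ± 0.779 BPM per kb for Scnn1a (SD, n = 3), with no overlap between Scnn1a and either of the others. Among all members in controls, in BPM per kb, Nr3c1 (29.9 ± 8.28) and Sgk1 (28.6 ± 7.22) came after Scnn1b and before Scnn1g, and each of these 4 overlapped its neighbour among them. Tsc22d3 followed at 15.7 ± 2.39, then Scnn1a, then Hsd11b2 (4.71 ± 0.338) and Nedd4l (4.62 ± 1.02), which overlapped, and last Nr3c2 at 1.54 ± 1.07 BPM per kb. In mutant kidneys Nr3c1 led at 36.5 ± 5.11, overlapping Scnn1b at 33.2 ± 5.65 BPM per kb. There Hsd11b2, at 8.74 ± 2.10, stood above Nedd4l (5.01 ± 0.466) with no overlap, while its range overlapped that of Scnn1a (4.64 ± 2.32), and Nr3c2 (2.62 ± 1.08) was again last. The order depends on the length used. With the longest transcript in place of merged exons, the control mean of Nedd4l was 10.5 in place of 4.62 BPM per kb. That of Sgk1 was 45.3 in place of 28.6 BPM per kb, which put Sgk1 first in controls. In mutant kidneys the longest transcript reversed the order of Hsd11b2 and Nedd4l. Nedd4l (11.4) then stood above Hsd11b2 (8.74 BPM per kb) with no overlap. Whether the authors summed coverage over exons or over whole genes is not given in the sources used here.

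**Figure D3:**
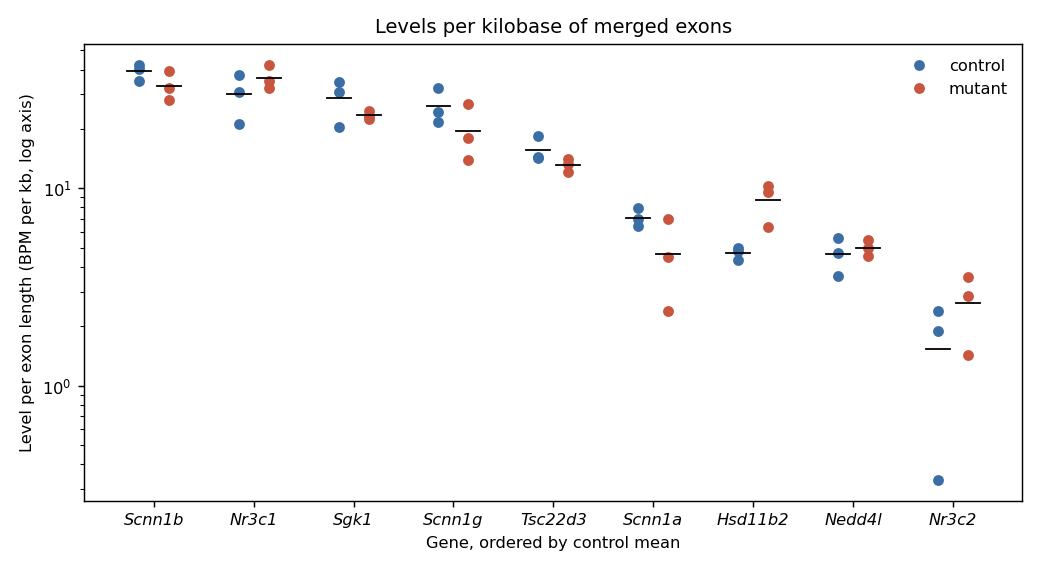
Levels divided by the kilobases of merged exons (vertical axis, BPM per kb, log axis) for each gene, ordered by the control mean, with one point per kidney and the group mean as a line. Scnn1b leads in control kidneys at 39.1 and Nr3c2 is lowest at 1.54.

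The summed level of the 3 subunits was 81.0, 69.6 and 66.5 BPM per kb in control kidneys 5, 7 and 11. In mutant kidneys 6, 8 and 9 it was 63.6, 44.5 and 64.4. Every mutant sum lay below every control, but mutant 9 and control 11 were close, and each subunit alone overlapped. The sum was not tested, and 11.2% of all single genes tested had no overlap. Scnn1a made up 7.91%, 11.4% and 10.5% of the sum in the controls and 7.09%, 5.38% and 10.9% in the mutants, so the groups overlapped. Ratios within a kidney do not depend on the scaling between libraries, and 4 were compared by an exact two-sided permutation test, which cannot give a p below 0.1. The ratio of Scnn1b to Scnn1a was 2.46 ± 0.225 in control and 2.96 ± 0.545 in mutant kidneys on the log2 scale (SD, 3 kidneys per group, exact p = 0.2, Benjamini-Hochberg adjusted 0.6). The Scnn1g to Scnn1a ratio was 1.86 ± 0.447 and 2.16 ± 0.691 (exact p = 0.6, adjusted 0.6). For Sgk1 to Nedd4l it was 2.62 ± 0.490 and 2.23 ± 0.208 (exact p = 0.3, adjusted 0.6), and for Nr3c2 to Nr3c1 -4.67 ± 1.64 and -3.89 ± 0.881 (exact p = 0.6, adjusted 0.6). The groups overlapped in all 4 ratios. With single kidneys left out, the difference of 0.50 in the Scnn1b to Scnn1a ratio ran from 0.20 (without mutant 8) to 0.73 (without mutant 9). That of 0.30 in the Scnn1g to Scnn1a ratio ran from 0.086 (without control 7) to 0.70 (without mutant 9). The Sgk1 to Nedd4l difference of -0.39 ran from -0.63 (without control 5) to -0.14 (without control 7), and the Nr3c2 to Nr3c1 difference of 0.78 from -0.16 (without control 5) to 1.37 (without control 11).

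Other genes of the pathway were counted in lists by role, and limma called 0 genes in each. Proteases and inhibitors that act on the channel had a median log2 fold change of -0.21, with 7 of 8 genes below 0. An unadjusted p below 0.05 was found for 2 of them, Plau and Furin, against 2.7% of all genes tested. Plau, the urokinase gene, stood at 263 ± 47.7 BPM in controls against 169.5 ± 8.28 BPM in mutants (SD, 3 kidneys per group, log2 fold change -0.61, SE 0.21, limma adjusted p = 0.73), with no overlap. Furin, whose product cleaves the alpha and gamma subunits, had means of 194 ± 44.5 in controls and 139.5 ± 32.8 BPM in mutants (log2 fold change -0.48, SE 0.23, limma adjusted p = 0.874) and overlapped, with a log2 fold change of -0.27 without mutant 6 and -0.30 without control 11. The other gene of the list with no overlap was Spint1 (log2 fold change -0.27), chosen after its value was seen. The sodium pump and partner transport proteins had a median of -0.33, with 9 of 11 genes below 0.

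The SGK and WNK kinase arm divided, with 10 of 18 genes above 0 and a median of 0.065. Its member with the smallest p was Mlst8, a subunit of both mTOR complexes, of which the second activates SGK1. Mlst8 stood at 64.0 ± 9.26 BPM in controls against 31.8 ± 5.83 BPM in mutants (SD, 3 kidneys per group, log2 fold change -0.995, SE 0.30, limma adjusted p = 0.563), lower in 3 of 3 mutants than in every control. The deubiquitinase gene Usp10 followed (log2 fold change -0.51, SE 0.25, limma adjusted p = 0.882), at -0.27 without control 11. Receptor chaperones and prereceptor enzymes had a median of -0.044, with 4 of 12 above 0. Nrip1, a corepressor of nuclear receptors, was higher in all 3 mutants (93.2 ± 22.3 and 138 ± 11.9 BPM, log2 fold change 0.59, SE 0.24, limma adjusted p = 0.854), and H6pd was at -0.22, or -0.14 without control 5 and -0.34 without control 7. Genes that corticosteroids induce in many cell types had a median of -0.070, with 9 of 15 below 0 and none with an unadjusted p below 0.05, the smallest p being those of Cdkn1a (log2 fold change -0.50, or -0.17 without control 11) and Sult1a1 (0.99, or 0.58 without mutant 8 and 1.52 without mutant 9).

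**Figure D4:**
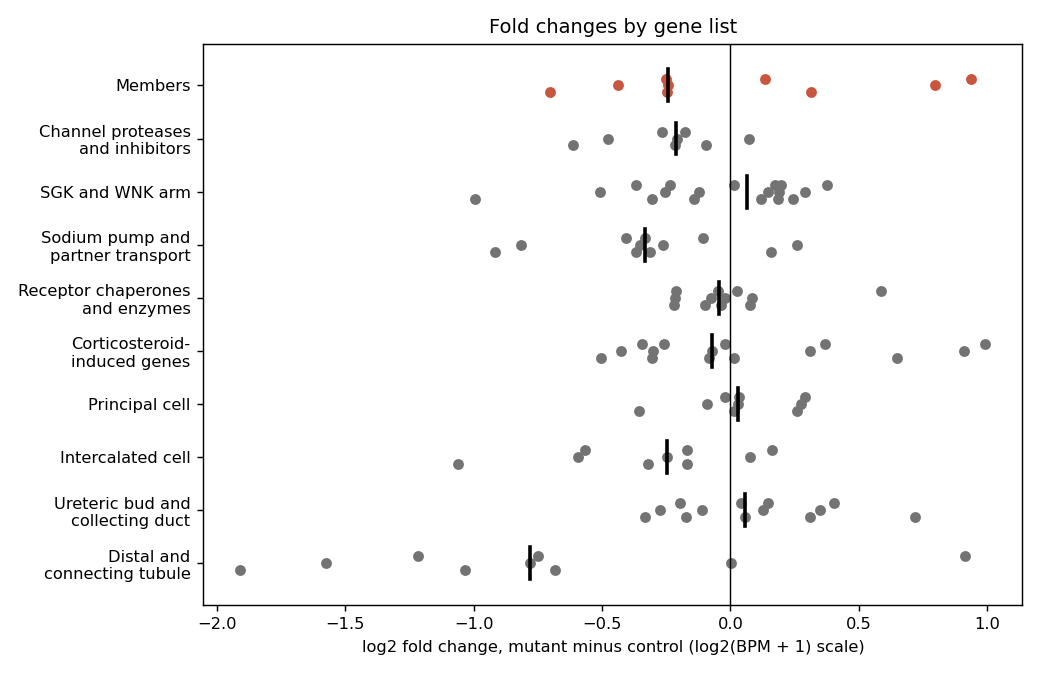
Log2 fold changes (horizontal axis, log2(BPM + 1) scale) of the genes tested in the pathway and collecting system lists, with one point per gene and the list median as a black bar, and the 9 members in red at the top. The medians of the lists drawn run from -0.78 for the distal and connecting tubule to 0.065 for the SGK and WNK arm.

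Markers of the collecting system and distal tubule divided by list, and their part in the results was not tested. Principal cell markers of the collecting duct, which express the channel, had a median log2 fold change of 0.029, with 6 of 9 genes above 0 and none past an unadjusted p of 0.05. Their sum was 1151 to 1291 BPM in control and 1164 to 1339 BPM in mutant kidneys. Most of this sum was Tfcp2l1, with means of 959 and 968 BPM, so it says little about the other markers. Aqp4 (0.27) and Gata3 (0.29) had the smallest p. Aqp4 was at 0.041 without control 11 and 0.46 without control 5, and Gata3 at 0.13 without control 5, 0.17 without mutant 9 and 0.44 without control 7. Ureteric bud and collecting duct markers had a median of 0.056 over 13 genes tested, 8 above and 5 below 0, with Wnt11 of the ureteric tips at 0.72 (unadjusted p = 0.0213 and adjusted p = 0.854 in limma) and Etv5 at 0.35. Etv5 was at 0.12 without control 5, 0.18 without mutant 6 and 0.55 without mutant 8. Intercalated cell markers had a median of -0.25 over 9 genes, 7 below 0, with Insrr at -0.59 (-0.38 without mutant 6 and -0.91 without mutant 8) and Aqp6 at -1.06. Aqp6 was listed at 0 in 3 libraries and at 11.07 BPM in control 5, with at most 1.69 BPM in any other. Its value was -0.75 with quantile normalization, -3.13 with a pseudocount of 0.01 and -1.83 without control 7, and without control 5 it did not pass the filter on low values. The distal convoluted and connecting tubule markers had a median of -0.78 over 9 genes, with 7 below 0, and 4 were lower and 1 higher with no overlap, where 5.12% and 6.1% of all genes tested were. Of the 4 lower genes, Pvalb and Trpm6 had low values. Pvalb was at 1.65 to 3.73 BPM in controls and at most 1.28 in mutants, and Trpm6 at 1.75 to 7.84 and at most 0.867. In that list Slc12a3 was at -1.22 and Calb1 at 0.91 on the log2 scale, and neither passed limma's test (adjusted p = 0.224 and 0.336).

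The genes whose pattern over the 6 libraries was most like the mean of the 3 subunits were Phb2, Lrrc8b, Mcam, Slc29a3 and Manba, with Pearson r from 0.977 to 0.987. For Sgk1 they were Uap1l1, Creld2, Slc5a6, Nos3 and Ssr1, with r from 0.967 to 0.992. These are the highest of 10487 genes with a mean of at least 10 BPM, compared over 6 points that share library depth and preparation, and they describe likeness in these libraries only.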

How the data were processed

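The 6 kidney RNA samples lost ribosomal RNA by depletion before Ion Total RNA-seq library preparation, according to the labels' protocols. Per the submitters' processing notes, bedtools and mm10 belong to the processing, with no role stated. The aligner and annotation were not given in the sources used here. In the deposited table the signal is summed base coverage per gene plus 1, times a factor per library, read from the values: dividing by the column minimum gave whole numbers for 100% of values (tolerance 0.001). The authors' deposited ratio is the mutant over the control mean, and the deposited p-value is unadjusted.

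The factor was removed and the bases scaled to 1e+06 per library (BPM), not divided by gene length. The filter kept genes reaching 1 BPM in 3 or more libraries (13977), and log2(BPM + 1) was fitted in limma 3.58.1 (R 4.3.3) with trend and robust options, two-sided, with Benjamini-Hochberg adjustment at 0.05 over all genes tested. The fold changes understate those of low genes. In simulated data (13749 genes, 10 runs) the fit recovered 10.7% of 2-fold changes and 51.4% of 4-fold changes. Most 2-fold changes were therefore missed there. Ratios were tested with scipy 1.17.1. Exon lengths and coordinates (1-based) come from GENCODE M21, in which 21629 of 23219 symbols were found.

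Members and lists were chosen with earlier results of these data known. Genes named are the members, up to 2 per list by smallest p, the most abundant marker of other cell types, and 5 per likeness profile. Lars2, Cd3e, Cyp11b2, Spint1, Pvalb, Trpm6, Tfcp2l1 and Jun were chosen after their values were seen. Some genes that this rule picks are not reported here. Control and mutant kidneys carry different numbers, so no samples were paired. The alternatives were other scalings, filters, pseudocounts, variance models and sample weights, each kidney left out, and 2 pairs of libraries left out.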

Additional observations from a re-analysis of the deposited data

How the results depend on the processing

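No paired analysis was possible because the control and mutant kidneys share no replicate number. Over 18 alternatives, 0 member calls were made, and limma adjusted p stayed between 0.515 and 0.995. Unadjusted limma p fell below 0.05 for some members at some settings. Examples are Hsd11b2 without the limma trend (0.0199) or with no filter (0.0388), and Nr3c2 with sample weights (0.0468). The share of all genes below 0.05 at those settings is not given here. The log2 fold changes of Scnn1a, Scnn1b, Scnn1g, Sgk1 and Tsc22d3 stayed below 0 and those of Nr3c2 and Hsd11b2 above 0. Nr3c1 turned to -0.023 without both control 11 and mutant 6, and Nedd4l ranged from -0.037 to 0.28 when single kidneys were left out. Of the 18 other genes picked by the rule in the pathway and tubule lists, Aqp4 turned, to -0.025 without both control 11 and mutant 9. With single kidneys left out, the difference in the Nr3c2 to Nr3c1 ratio ranged from -0.16 (without control 5) to 1.37, and it was 1.86 without both control 11 and mutant 6. Leaving out single kidneys gave 0 to 8 genes called, 2 to 4 members without overlap (20.1% to 22.8% of all genes tested at those settings) and a member median of -0.25 to -0.10. The genes called were 1 with quantile normalization, 1 without the limma trend and 4 with sample weights. Without both control 11 and mutant 6 they were 22, with 5 of 9 members without overlap, against 35.4% of all genes tested there, and a median of -0.070. Without both control 11 and mutant 9, chosen after seeing the data, they were 4, with 5 of 9 members, against 33.5% of all genes, and a median of -0.13. The cause was not tested. Scaling moved the median of all genes by -0.025 to 0.00033. Nr3c2 had the lowest mean exon depth of the members, 0.264 to 3.55 bases of coverage per exon base.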
